A study of Mus musculus with 4 samples.

Results

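B cells made up a small part of a sort that was aimed at CD4 T cells carrying an IL-4 reporter. A barcode was called a B cell from its own unique transcript counts (UMIs, each standing for 1 captured RNA molecule). It had 500 or more genes, at most 10% mitochondrial UMIs, 4 or more summed UMIs of Cd79a, Cd79b and Ms4a1, at most 1 summed UMI of Cd3d, Cd3e and Cd3g, and fewer than 20 UMIs of Jchain. The rule found 197 barcodes among 7646 deposited for the reporter sort and 11602 for both sorts of the study, and 4585 reporter-sort barcodes passed the cell filter. Of the 197, 182 carried the hashtag of a single mouse (10 or more counts of the top hashtag and at least 3 times the next), with 52 from mouse 1, 40 from mouse 2 and 90 from mouse 3. The results below rest on these 182 cells.

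The cells came from the mediastinal lymph node, 7 days after mice had inhaled 10 µg of Alternaria extract, a fungal allergen, and 25 µg of the hapten-carrier antigen NP-OVA. The reporter mice were 4GET animals on a C57BL/6 background, sorted for activated CD4 T cells positive for the IL-4 reporter. A second sort, of TCRβ+ CD4+ CD44+ PD-1+ CXCR5+ cells from C57BL/6 mice given the same challenge, is used only for values side by side and is called the Tfh sort. All sorted cells, B cells included, had been stimulated with PMA and ionomycin for 30 minutes, and no unstimulated or unchallenged cells were analysed here. Each sort was 1 lane of droplet 3′ sequencing with 3 mice, so the mouse is the replicate. Cd3-marked cells of the same lane served as the comparison, and had 2 or more summed Cd3 UMIs and at most 1 summed UMI of Cd79a, Cd79b and Ms4a1. There were 3634 of them, 1232, 1055 and 1347 by mouse.

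B cells carry a membrane immunoglobulin that signals through the partner chains CD79A and CD79B and the kinases LYN, SYK and BTK. They take up bound antigen and show its peptides on MHC class II to CD4 T cells, which return help through CD40 ligand and cytokines such as IL-4. Naive follicular B cells carry IgM and IgD, while germinal-centre B cells divide, switch class to IgG or IgE and lose IgD. The 4get allele places a fluorescent reporter behind the Il4 coding sequence, so it reports on Il4 transcripts and not on secreted IL-4.

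The hashtag oligonucleotides that tie each B cell to a mouse are shown first, because every mouse value below depends on them. They are the tags of mouse 1 (MHTO3), mouse 2 (MHTO4) and mouse 3 (MHTO5), printed in lower case.
MHTO3: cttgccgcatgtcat
MHTO4: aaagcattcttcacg
MHTO5: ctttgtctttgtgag

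MHC class II genes gave 29729 to 34365 CPM (UMIs scaled to a total of 1000000) in B cells, summed over 10 genes, and stretches of 4 of their promoters are shown with the letters TGATTGG in capitals, the Y-box core of class II promoters on the strand printed. Each runs from 130 to 21 bases before the RefSeq gene start in GRCm38.p6, 5′ to 3′ along the gene: H2-Aa, chr17:34287844-34287953, minus strand; H2-Eb1, chr17:34305737-34305846, plus strand; H2-Oa, chr17:34092249-34092358, plus strand; H2-DMb2, chr17:34145119-34145228, plus strand.
H2-Aa: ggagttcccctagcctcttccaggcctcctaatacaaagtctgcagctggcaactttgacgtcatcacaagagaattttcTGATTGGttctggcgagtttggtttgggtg
H2-Eb1: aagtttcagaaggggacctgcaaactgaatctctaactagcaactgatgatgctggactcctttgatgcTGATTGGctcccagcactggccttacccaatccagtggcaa
H2-Oa: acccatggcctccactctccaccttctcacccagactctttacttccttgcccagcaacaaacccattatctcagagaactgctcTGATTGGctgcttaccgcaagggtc
H2-DMb2: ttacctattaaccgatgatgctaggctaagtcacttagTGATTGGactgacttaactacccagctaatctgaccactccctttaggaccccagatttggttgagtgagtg
The motif, the window and these genes were chosen after the expression values were seen. Counting both strands of the 300 bases around each start, TGATTGG was found in 6 of the 7 class II list genes with a RefSeq entry and in 2431 of all 27025 genes with an entry (8.995%). H2-DMa was the gene with an entry and no match.

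Summed over cells, the B cells held 308748, 212715 and 468492 UMIs in mice 1, 2 and 3. Their median depth per cell was 4716, 4428 and 4380 UMIs, against 6916, 6921 and 6547 UMIs in Cd3-marked cells, a lower median in every mouse. Median mitochondrial share was 6.68%, 6.56% and 6.54% in B cells and 5.34%, 5.52% and 5.46% in Cd3-marked cells. No B-cell barcode was also deposited in the Tfh sort, and the sorts shared 1 barcode in all. Mixed hashtags were carried by 15 of the 197 B barcodes (7.61%, 95% exact binomial interval 4.32% to 12.2%) and by 449 of 4087 Cd3-marked barcodes (10.99%). Doublets within a mouse cannot be seen this way, and no doublet caller was run.

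All 18 genes of a B identity list were more abundant in B cells than in Cd3-marked cells of every mouse, and all 18 genes of a T lineage list were less abundant, although the sort's label is CD4 T cells. The rule used 3 genes of each list. Without those, 15 of 15 B identity genes were higher, with a median log2 ratio of 7.17 on CPM plus 1, and 15 of 15 T lineage genes were lower, with a median of −4.23. Over all 5739 genes with 20 CPM or more in either group, 18.3% were higher in B cells with no overlap between mice and 42.7% were lower, and since the groups were chosen on these counts nothing is read from the shares. Most markers of other cells were low in both. Summed macrophage markers ranged from 194 to 389 CPM in B cells and from 104 to 159 CPM in Cd3-marked cells. Most of the B-cell sum was Apoe, with 356, 291 and 164 CPM in B cells, against 2.08, 2.62 and 49.98 CPM in Cd3-marked cells. Apoe was thus higher in B cells without overlap, with a ratio of 14.9, while Ctsd was lower. C1qb, C1qc, Csf1r and Adgre1 were at 0 in B cells. Summed dendritic-cell markers ranged from 160 CPM to 329 CPM in B cells and 119 to 160 CPM in Cd3-marked cells. In B cells, 4 of 10 were at 0. The highest sum was that of mouse 3, where 1 cell of 13870 UMIs held 42 of the 104 Cst3 UMIs. That cell also held 18 of the 30 Fscn1 UMIs of all B cells. Mast-cell and basophil markers reached at most 4.27 CPM in B cells, with 8 of 9 at 0, and 33.3 to 114 CPM in Cd3-marked cells.

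B cells were 3.90% of filtered, hashtag-assigned barcodes in mouse 1 (95% exact interval 2.93% to 5.09%), 3.50% in mouse 2 (2.51% to 4.73%) and 5.95% in mouse 3 (4.81% to 7.26%). The mean over mice was 4.45% ± 1.31 (SD, n = 3). Mouse 3 stood highest, and its interval did not overlap that of mouse 2. These intervals cover counting error only, and the sort gate can set the share. The same rule in the Tfh sort gave 418 cells, or 11.3%, 8.76% and 14.4% of its 3 mice.

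The members had a median summed Cd79a, Cd79b and Ms4a1 count of 21 UMIs (4 to 113), and 116 of the 182 had no Cd3 UMI while 66 had 1. Just inside the limit, 7 of the 197 barcodes had a B sum of 4 to 5 (4 of them with mixed hashtags). Just outside it, 8 barcodes had a sum of 2 to 3 (5 with mixed hashtags), with Cd74 at 8001 CPM. On the Cd3 side, 21 barcodes with a B sum of 4 or more had 2 to 3 Cd3 UMIs and Cd74 at 11891 CPM. A further 51 had 4 or more, and were deeper (median 12661 UMIs) with both Cd74 (4522 CPM) and Trac (521 CPM). The Jchain limit set aside 10 barcodes with a median of 19477.5 UMIs, and the mitochondrial limit 65.

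**Figure D1:**
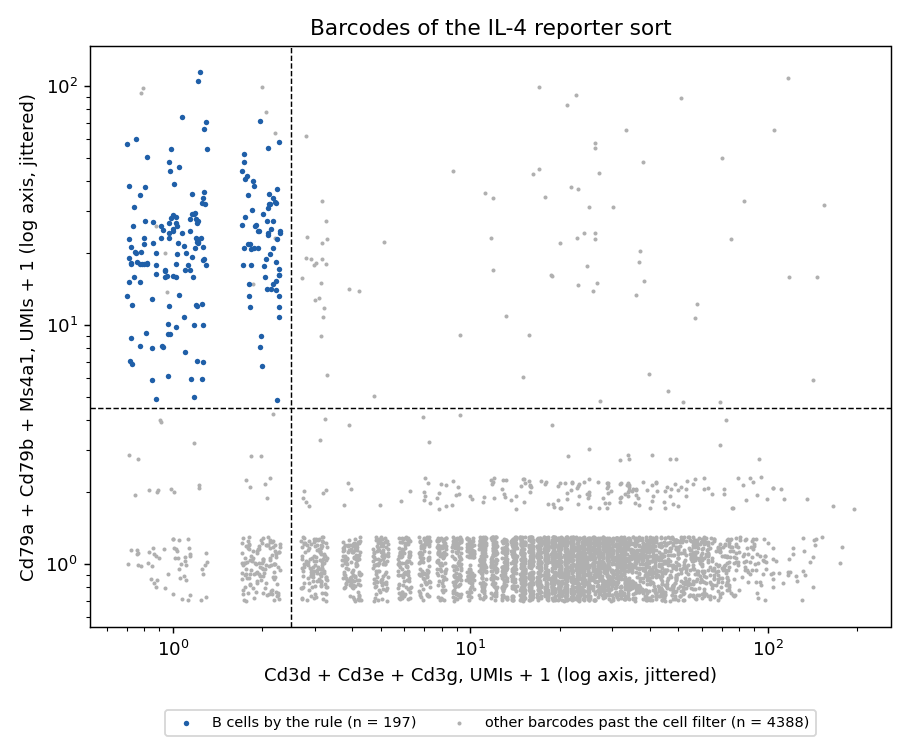
Each point is 1 of the 4585 reporter-sort barcodes past the cell filter, placed by its summed Cd3d, Cd3e and Cd3g UMIs plus 1 (horizontal, log axis, jittered) and its summed Cd79a, Cd79b and Ms4a1 UMIs plus 1 (vertical, log axis, jittered), with dashed lines at the limits of the rule. The 197 B cells fill the upper left, and grey barcodes with many Cd3 UMIs lie along the bottom. Barcodes with 4 or more of both lie scattered at the upper right, 51 of them with fewer than 20 Jchain UMIs.

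The antigen-receptor genes set the members apart because the rule used them, so their values are a description with no test. Cd79a, a signalling partner of membrane immunoglobulin, had 2238, 2332 and 2433 CPM in B cells of mice 1, 2 and 3, against 1.48, 1.05 and 1.98 CPM in Cd3-marked cells. Cd79b, its partner chain, had 1273, 1222 and 1097 CPM in B cells, against 2.78, 1.31 and 1.91 CPM in Cd3-marked cells. Ms4a1, which encodes CD20, had 907, 1015 and 1059 CPM in B cells and less than 1 CPM in Cd3-marked cells of each mouse. None of the 3 overlapped between the groups.

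The median log2 ratio of B cells to Cd3-marked cells, computed on CPM plus 1, was −0.30 over the 5739 genes. Receptor-signalling genes had 18 of 18 such members higher in B cells, with a median log2 ratio of 6.11. The list holds Cd79a and Cd79b, and the other 16 were also all higher, with a median of 5.97. The kinase gene Syk had 104, 103 and 100.3 CPM in B cells and at most 0.262 CPM in Cd3-marked cells. Lyn, another proximal kinase gene, had 123, 212 and 139 CPM in B cells and below 1 CPM in Cd3-marked cells. The adaptor Blnk had 194, 183 and 209 CPM in B cells.

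All 12 listed transcription regulators were higher in B cells, with a median log2 ratio of 5.61. Ebf1, a factor that commits precursors to the B lineage, had 998, 1222 and 971 CPM in B cells and at most 1.03 CPM in Cd3-marked cells. Its ratio of mean CPM, 1761, was the largest among genes with 100 CPM or more in B cells of every mouse, the rule's own genes left out. Pax5, which keeps B-cell identity, had 211, 329 and 279.6 CPM in B cells and at most 1.39 CPM in Cd3-marked cells. Mef2c followed Ebf1 with a ratio of 1643, while the ratios of Pou2f2 and Foxp1, which Cd3-marked cells also expressed, were 2.63 and 2.42. Others among the 20 largest ratios were Fcrla, Bcl11a, Blnk, Fcer2a, Siglecg, Ly6d, Iglc3, Vpreb3, Iglc2, Fcmr, Ly86, Cd180, Napsa, Lmo2, Bank1, Il4i1 and Syk, all with ratios of 414 or more.

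All 10 listed MHC class II genes were higher in B cells, with a median log2 ratio of 6.67. Cd74, the invariant chain that escorts class II to endosomes, had 15527, 17437 and 14920.2 CPM in B cells, against 104, 195 and 156 CPM in Cd3-marked cells, a 105-fold ratio of means. H2-Aa, a class II α chain, had 4509, 4833 and 4290.4 CPM in B cells, against 15.5, 38.9 and 20.7 CPM in Cd3-marked cells. Every B cell had a UMI of both genes.

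The genes of peptide loading and of class II control were also higher in B cells. H2-DMa, a chain of the catalyst of peptide exchange, had 784, 743 and 730.0 CPM in B cells, against 72.9, 69.3 and 56.5 CPM in Cd3-marked cells, the smallest ratio of the 10 class II genes at 11.4. H2-Oa and H2-Ob, which encode the inhibitor of that catalyst, had 385, 371 and 363 CPM and 353, 381 and 379.9 CPM in B cells. Ciita, the class II transactivator, had 107, 132 and 113 CPM in B cells and was below 1 CPM in Cd3-marked cells.

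**Figure D2:**
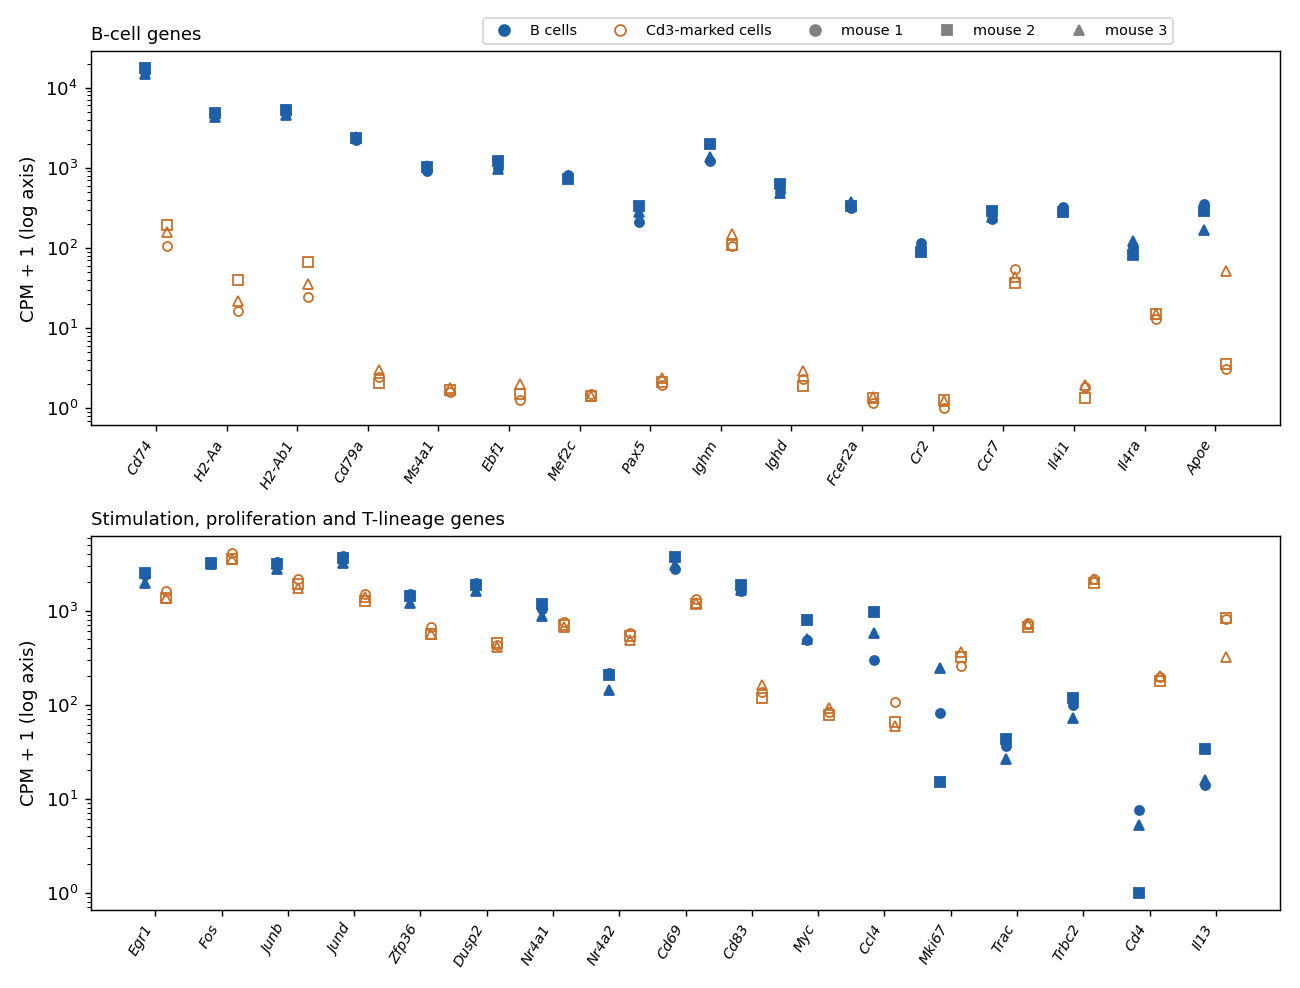
Levels of named genes in CPM plus 1 on a log axis, 1 point per mouse, filled for B cells and open for Cd3-marked cells of the reporter sort. Class II and receptor genes lie far apart between the groups (Cd74 105-fold). Immediate-early genes lie closer but differ, with Egr1 1.58-fold and Dusp2 4.21-fold higher in B cells and Nr4a2 lower.

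Most of the cells had transcripts of unswitched follicular B cells. Ighm, the IgM heavy chain, was seen in 165 of the 182 cells and Ighd, the IgD heavy chain, in 144, while Ighg1 was seen in 20 and Ighe in 8. Ighd had 492, 621 and 491 CPM in B cells and at most 1.91 CPM in Cd3-marked cells. Ighm had 1231, 1960.4 and 1347 CPM in B cells and 104, 106 and 149 CPM in Cd3-marked cells. Igkc, the κ light chain, had 13827, 6257 and 6956 CPM in B cells, with mouse 1 above the other mice. A single cell held 2509 of the 4269 Igkc UMIs of mouse 1, and without it mouse 1 had 5900 CPM, below the other mice. That cell had 10419 UMIs in all, with no UMI of Ighd, Ighm or Ighg1. It was also the leading cell of mouse 1 for Ighg2b, Apoe and Xbp1, given below.

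Of 14 naive follicular genes, 13 were higher in B cells and 1, S1pr1, overlapped, with a median log2 ratio of 2.77. Fcer2a, the low-affinity IgE receptor CD23, had 317, 329 and 376 CPM in B cells and at most 0.367 CPM in Cd3-marked cells. Cr2, the complement receptor CD21, had 113, 89.3 and 111 CPM in B cells and at most 0.262 CPM in Cd3-marked cells. Cxcr5, the follicle-homing receptor, had 159, 259 and 273 CPM in B cells, against 26.3, 22.9 and 31.6 CPM in Cd3-marked cells. Ccr7, a lymph-node homing receptor, and Klf2, a regulator of trafficking, were also higher in B cells, with ratios of 5.72 and 3.50. Of 9 marginal-zone, B1 and memory genes with 20 CPM or more, 2 were higher in B cells, 5 lower and 2 overlapping. Over all 5739 genes, 18.3% were higher and 42.7% lower, and nothing is read from this list.

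Genes of the IL-4 response were mixed. Of 12 with 20 CPM or more, 6 were higher in B cells, 2 lower and 4 overlapping, with a median log2 ratio of 0.32. The shares over all 5739 genes were 18.3% higher and 42.7% lower. Il4ra, the IL-4 receptor α chain, had 100.4, 79.9 and 119.5 CPM in B cells, against 12.1, 14.1 and 13.9 CPM in Cd3-marked cells. Il4i1, an amino-acid oxidase induced by IL-4 in B cells, had 327, 277 and 305 CPM in B cells and below 1 CPM in Cd3-marked cells. Stat6, which carries the IL-4 signal, overlapped, with 32.4, 32.9 and 38.4 CPM in B cells and 33.0, 29.0 and 34.9 CPM in Cd3-marked cells. The feedback genes Socs1 and Cish were the 2 lower members.

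The sort selected on an Il4 reporter, yet Il4 was nearly missing from the B cells. Only 2 of 182 had an Il4 UMI (1.10%), against 1003 of 3634 Cd3-marked cells (27.6%). Il13, the partner type 2 cytokine, had 12.96, 32.9 and 14.9 CPM in B cells, 1 UMI in each of 18 cells, against 806, 827 and 318 CPM in Cd3-marked cells. Il5 and Il3 were seen in 0 of 182 B cells, which allows a share of up to 1.65% of cells with a UMI. Of the listed B-cell cytokines with 20 CPM or more, lymphotoxin β (Ltb) was higher in B cells, with 586, 616 and 519 CPM against 398, 399 and 453 CPM in Cd3-marked cells. The other 4, Il10, Tgfb1, Tnf and Tnfsf9, were lower in B cells, beside 42.7% of all 5739 genes lower and 18.3% higher.

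Transcripts of T cells were present in B cells at a low level. Across 20 T-lineage and type 2 genes with 100 CPM or more in Cd3-marked cells, none of them a Cd3 gene, the level in B cells was at a median 4.58% of that in Cd3-marked cells. Trac, Trbc1 and Trbc2, the T-cell receptor constant genes, lay at 4.85%, 4.60% and 4.56%. Type 2 genes other than Plac8 lay in the same range, with Il13 at 3.12% and Ccl1 at 4.40%. Cd4 was lowest at 1.87%, with UMIs in 4 cells. Above the range were Lck at 12.0%, Cd2 at 35.6% and Plac8 at 220%, the last more abundant in B cells than in Cd3-marked cells.

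In single cells, a Trac UMI was seen in 30 of 182 B cells (16.5%), against 3479 of 3634 Cd3-marked cells (95.7%). After thinning each cell to 2000 UMIs, which kept 177 B cells and 3368 Cd3-marked cells, the shares were 7.91% and 76.2%. A Trbc2 UMI was seen in 38.5% of B cells and 98.4% of Cd3-marked cells.

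**Figure D3:**
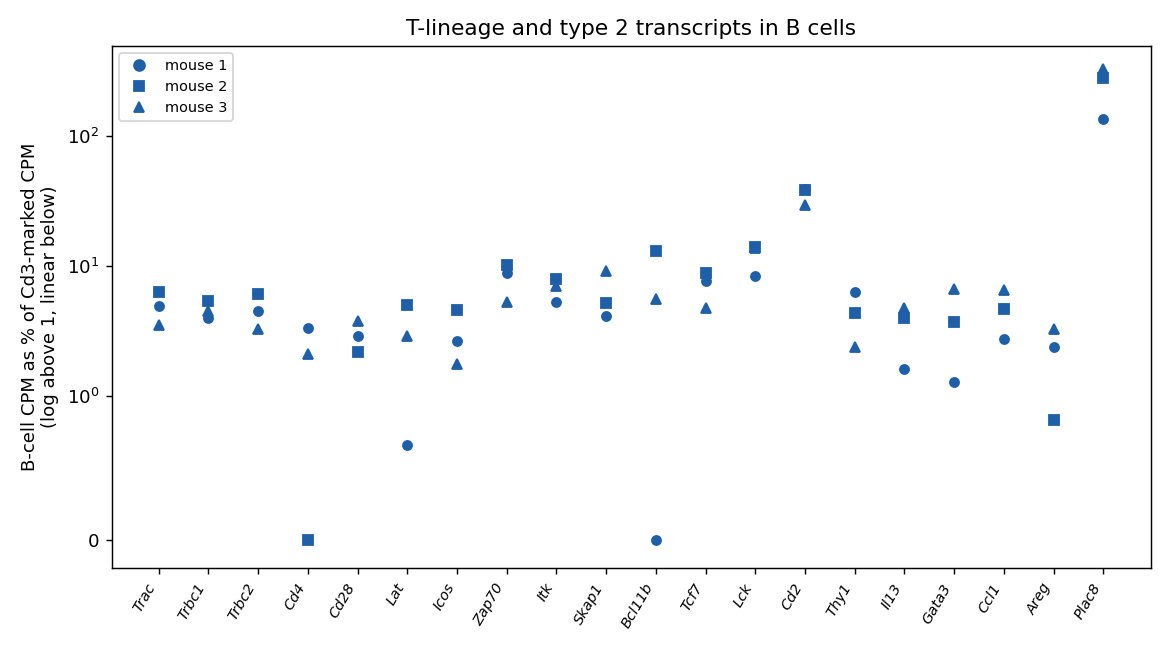
Level in B cells as a percent of the level in Cd3-marked cells for 20 T-lineage and type 2 genes, 1 point per mouse, on an axis that is log above 1% and linear below. Most genes gather near the median of 4.58%, while Lck, Cd2 and Plac8 lie above it and Cd4 and Bcl11b were at 0 in 1 mouse each.

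B cells with a UMI of Trac, Trbc1, Trbc2 or Cd4 were then set against those without, to ask whether other genes differed. Those with such a UMI were 34 of 52 cells in mouse 1, 29 of 40 in mouse 2 and 51 of 90 in mouse 3, and they were deeper, with median depths of 4967.5, 4526 and 4440 UMIs against 4331, 4038 and 4324. By edgeR's quasi-likelihood test with the mouse as a block, 0 of 2244 genes passed a Benjamini-Hochberg adjusted p of 0.05 (0%), 62 had an unadjusted p under that value, and DESeq2 called 0. Apoe, a lipid carrier abundant in macrophages, came near. It had 499.8, 430.1 and 216 CPM in B cells with T-cell transcripts, against 89.9, 128 and 137 CPM in those without, higher in 3 of 3 mice (log2 1.43, SE 0.31, edgeR adjusted p = 0.11). In mouse 1, 69 of the 110 Apoe UMIs came from the cell that led Igkc there, and it had such a T-cell transcript. Over all B cells of mouse 1, the plain CPM of Apoe was 356 with that cell and 137 without it. Apoe was named after its values were seen, and it passed in several of the alternatives given in the closing part. Levels in this comparison and in the Ighd comparison below are scaled to the UMIs of the tested genes with edgeR's TMM factors, so they are not on the scale of the plain CPM above.

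Hashtag counts were not part of the gene rule. Their median was 316, 335.5 and 294.5 in B cells, against 402, 465 and 381 in Cd3-marked cells. The median was lower in B cells of all 3 mice, by a mean of 0.40 on the log2 scale (SD 0.07, fold 0.760). The exact two-sided sign-flip permutation test gave p = 0.25, the smallest that 3 mice allow. Depth moved the same way (log2 −0.59 ± 0.05, SD, n = 3), and its part in the hashtag difference was not tested.

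Both groups had gone through the same stimulation. Of 20 immediate-early genes, 11 were higher in B cells, 6 lower and 3 overlapping, with a median log2 ratio of 0.48. The shares over all 5739 genes were 18.3% higher and 42.7% lower, and nothing is read from these counts. Egr1, a zinc-finger factor induced within minutes, had 2394, 2492 and 1970.2 CPM in B cells, against 1619, 1352 and 1361 CPM in Cd3-marked cells. Dusp2, a MAP kinase phosphatase, had 1956, 1880.5 and 1633 CPM in B cells, against 429.8, 455 and 414 CPM in Cd3-marked cells. Jund and Zfp36 were likewise higher in B cells, with ratios of 2.54 and 2.30. The order turned for Nr4a2, an orphan nuclear receptor, with 214, 207 and 143 CPM in B cells and 573, 532 and 489.7 CPM in Cd3-marked cells. Fos had 3168, 3234 and 3104 CPM in B cells, below 4156, 3505 and 3571 CPM in Cd3-marked cells.

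Of 20 activation and costimulation genes with 20 CPM or more, 13 were higher in B cells, 2 lower and 5 overlapping. Beside them, 18.3% of all 5739 genes were higher and 42.7% lower. Cd83, a class II stabiliser of activated antigen-presenting cells, had 1626, 1871 and 1659 CPM in B cells, against 137, 116 and 159.9 CPM in Cd3-marked cells. Cd69, an early activation antigen, had 2747, 3714 and 3048 CPM in B cells, against 1330.4, 1187 and 1192 CPM in Cd3-marked cells. Myc, a growth regulator, had 489, 789.8 and 504 CPM in B cells, against 82.1, 76.4 and 91.0 CPM in Cd3-marked cells. Cd86, a ligand of CD28, had 93.9, 51.7 and 126 CPM in B cells and at most 1.92 CPM in Cd3-marked cells. Ccl4, a chemokine, varied between mice, with 295, 973 and 583 CPM in B cells and 104, 65.0 and 58.2 CPM in Cd3-marked cells.

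Of 25 proliferation genes, 22 were lower in B cells and 3 overlapped, with a median log2 ratio of −1.48. All 8 glycolysis genes with 20 CPM or more were lower, with a median of −1.16. Mki67, a marker of dividing cells, had 81.0, 14.1 and 245 CPM in B cells, against 257, 319 and 365 CPM in Cd3-marked cells, so the B cells differed widely among mice. In mouse 1, 23 of its 25 UMIs came from 1 cell, and the level without that cell was 7.71 CPM. Of 4 interferon-stimulated genes with 20 CPM or more, 2 were lower in B cells, led by Ifi27l2a, beside 42.7% of all 5739 genes.

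A small set of cells carried germinal-centre genes. Counting how many of 14 listed germinal-centre genes had a UMI, 19 of the 182 cells had 4 or more, a limit chosen after the values were seen. Of these, 4 came from mouse 1, 2 from mouse 2 and 13 from mouse 3, or 7.69%, 5.00% and 14.4% of their B cells, with exact intervals of 2.14% to 18.5%, 0.611% to 16.9% and 7.92% to 23.4%. They were deeper (median 7811 UMIs) than the 163 cells with fewer (median 4442), and depth raises the number of genes seen.

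An Ighd UMI was seen in 0 of the 19, which allows a share of up to 15.8%, while 4 had Ighm and 14 had Ighg1. Among the 163 others, 144 had Ighd, 161 had Ighm and 6 had Ighg1. Mki67 was seen in 12 of 19 against 6 of 163, and the median number of proliferation genes seen was 12 of 25 against 3. S1pr2, a receptor that holds B cells in the germinal centre, was seen in 11 of 19 against 0 of 163, which allows up to 1.84%. S1pr2 is on the list that chose these cells, and not every listed gene set them apart. Lmo2 was seen in 10 of 19 against 95 of 163, Bcl6 in 5 of 19 against 26 of 163, and Mef2b in 0 of both. Each other listed gene was seen in a larger share of the 19 than of the 163.

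Levels of genes outside that list are a description, since the cut was made on the same counts. They pool the UMIs of all mice, with no value per mouse. Of the 19 cells, 13 came from mouse 3, and 1 cell of mouse 1 had 49496 UMIs. Cd55, a complement regulator, had 10.0 CPM in the 19 cells and 299 CPM in the others. Cd69 had 818 CPM in the 19 cells against 3672 CPM in the others, and Egr1 848 CPM against 2559 CPM. Fos was at 1013 CPM against 3691 CPM. In these pooled values the germinal-centre-gene cells stood lower in these stimulation genes than the other B cells of the same lane. A difference within each mouse was not tested. By a cut of 8 or more of 25 proliferation genes, also chosen after the values were seen, 16 cells stood out (2, 1 and 13 by mouse), and 11 of them were among the 19.

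**Figure D4:**
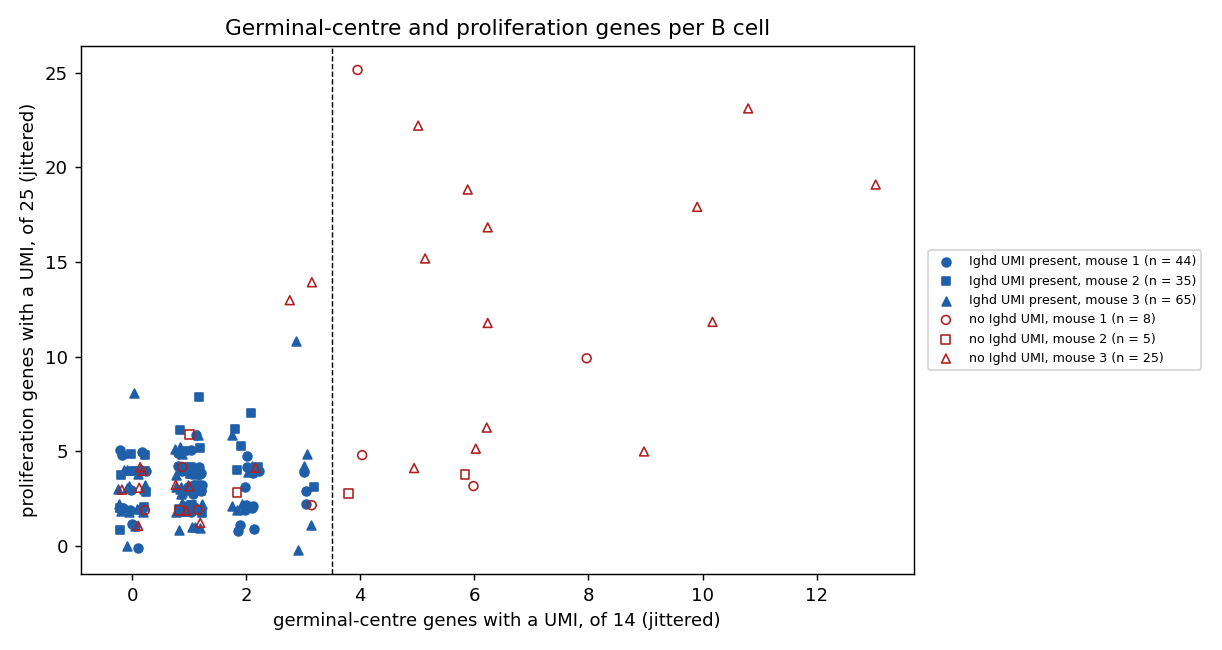
B cells by the number of 14 germinal-centre genes (horizontal, jittered) and of 25 proliferation genes (vertical, jittered) with a UMI, 1 point per cell, filled where an Ighd UMI was seen, open where none was, and shaped by mouse. The 19 cells right of the dashed line have 4 or more germinal-centre genes, no Ighd UMI and a median of 12 proliferation genes.

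Splitting the B cells by Ighd gave a contrast that could be tested over mice. Ighd+ cells (1 or more UMIs) numbered 44, 35 and 65 in mice 1, 2 and 3, and Ighd-negative cells (0 UMIs) 8, 5 and 25. All 144 Ighd+ cells had Ighm UMIs and 5 had Ighg1, while of the 38 Ighd-negative cells 21 had Ighm, 15 Ighg1 and 4 neither. The Ighd-negative cells were the 19 with 4 or more germinal-centre genes and 19 with fewer, the second set shallow (median 3729 UMIs) with Ighm in 17. Median depth was 4679, 4247 and 4440 UMIs in Ighd+ cells, against 6697, 8988 and 3926 UMIs in Ighd-negative cells. In mouse 1, a single Ighd-negative cell had 49496 UMIs, against 11613 in the next deepest, so that mouse's Ighd-negative values rest largely on it. Cells that lack Ighd and cells in which it was missed at their depth cannot be told apart. The planned minimum of 10 cells per sum left only mouse 3, so a minimum of 5 was adopted after the cell numbers were seen.

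In Ighd+ cells, 11 of 18 tested immediate-early genes, 6 of 12 naive follicular genes and 5 of 16 activation genes rose, while Ighg1, 2 of 6 plasma-cell genes and 4 of 6 proliferation genes fell. By edgeR's quasi-likelihood test with the mouse as a block, 129 of 2036 genes passed an adjusted p of 0.05 (6.34%). Of these, 77 were higher in Ighd+ cells (3.78%) and 52 lower (2.55%), and 115 moved the same way in every mouse. The count rests on mouse 3, which gave 25 of the 38 Ighd-negative cells: without it, 6 genes passed, Ccl4, Cd72, Fcmr, Gadd45g, Ighg1 and Jchain. Without mouse 1 there were 41 and without mouse 2 there were 423.

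Among immediate-early genes, 11 of 18 tested rose in Ighd+ cells and none fell, with a median log2 change of 1.05 beside −0.03 over all genes tested. Egr1 had 3638, 3246 and 2919 CPM in Ighd+ cells, against 1179, 2025 and 1089 CPM in Ighd-negative cells (log2 1.26, SE 0.28, edgeR adjusted p = 0.0031). Fos had 4533, 4449 and 4428 CPM in Ighd+ cells, against 2137, 1595 and 2019.6 CPM in Ighd-negative cells (log2 1.22, SE 0.28, edgeR adjusted p = 0.0035). Neither gene overlapped between the states. Junb, Btg2 and Nr4a2 rose too, by 1.32, 1.40 and 2.31 on the log2 scale. Without mouse 3, 0 of 19 immediate-early genes passed by edgeR (145 of 1670 genes of that fit had an unadjusted p under 0.05), with a median of 1.12, and DESeq2 on all mice called 8.

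Of 16 activation genes tested, 5 rose and none fell, with a median of 0.70. Cd69 had 4368, 5002 and 4512 CPM in Ighd+ cells, against 957, 2301 and 1691 CPM in Ighd-negative cells (log2 1.57, SE 0.29, edgeR adjusted p = 0.00029). Ccl4 had 519, 1357 and 997 CPM in Ighd+ cells, against 0, 399 and 82.2 CPM in Ighd-negative cells (log2 3.20, SE 0.43, edgeR adjusted p = 1.2e-06). Ccl4 also passed without mouse 3. It did not pass with DESeq2 (log2 3.85, adjusted p = 0.091) or in edgeR at matched depth (log2 2.22, adjusted p = 0.20), and its adjusted p was at most 0.019 in the other alternatives. Myc, Cd83 and Nfkbid were the other members that rose. Cd86 had 114, 42.0 and 164 CPM in Ighd+ cells and 105, 153 and 109.5 CPM in Ighd-negative cells, with overlap (log2 0.01, edgeR adjusted p = 0.99).

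Of 12 naive follicular genes tested, 6 rose and none fell, with a median of 1.09. Cd55 had 450.5, 357 and 359 CPM in Ighd+ cells, against 23.4, 184 and 41.1 CPM in Ighd-negative cells (log2 2.71, SE 0.47). Satb1, a chromatin organiser, rose by 2.46, Foxp1, a transcription factor of resting B cells, by 1.89 and Klf2 by 1.15, and Btg1 also passed. Fcer2a and Cr2 did not pass, with log2 differences of 0.73 and 1.06 and edgeR adjusted p-values of 0.23 and 0.18. Cr2 was higher in 2 of 3 mice.

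Of 10 class II genes, 2 rose, H2-Aa (log2 0.94, SE 0.28, edgeR adjusted p = 0.034) and H2-DMb1 (log2 1.37, SE 0.39, edgeR adjusted p = 0.024). The median over the 10 was 0.69. Of 17 B identity genes, Cd72, Fcmr, H2-Aa and Ighm rose and none fell. Ighm had 2109.7, 2435 and 1968 CPM in Ighd+ cells, against 117, 2117 and 794 CPM in Ighd-negative cells (log2 1.62, SE 0.38, edgeR adjusted p = 0.0047). In mouse 2 the Ighm values of the states lay close. Receptor-signalling genes and transcription regulators gave 1 call each, Cd72 of 15 and Foxp1 of 12.

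The largest rises in genes outside those roles were P2ry10, a G-protein-coupled receptor, Plaur, the urokinase receptor, Rasgef1b, Gadd45g, a stress-response gene, Gpr18, Cnn3 and Trim7. P2ry10 had 58 UMIs in Ighd+ cells and 0 in Ighd-negative cells, at least 7.97-fold higher per UMI with a floor of 3 UMIs over the group. Plaur had 69 UMIs in Ighd+ cells against 3, a 9.48-fold ratio (95% counting interval 3.11 to 47.1). The other 5 rose by 2.52 to 2.82 on the log2 scale.

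Ighg1, a switched heavy chain, and 2 of 6 plasma-cell genes were lower in Ighd+ cells. Ighg1 had 5.70, 7.00 and 15.3 CPM in Ighd+ cells, against 455, 215 and 575 CPM in Ighd-negative cells (log2 −5.34, SE 0.52). The plasma-cell gene Jchain, which joins IgM and IgA multimers, fell by 5.84 on the log2 scale, in cells already limited to fewer than 20 Jchain UMIs by the rule. Mzb1, a chaperone of antibody-secreting and marginal-zone B cells, fell by 1.10, the other plasma-cell gene that passed. Il4i1 rose by 1.80 while Ighg1 fell, so the 7 tested IL-4 response genes moved in both directions. Il4ra did not pass (log2 0.96, SE 0.45, edgeR adjusted p = 0.22).

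Among cell-cycle genes, only 6 of the 25 proliferation genes reached the count filter, and 4 of the 6, Hmgb2, Stmn1, Tubb5 and Ube2c, fell in Ighd+ cells, with a median of −1.55. Ube2c, a ubiquitin-conjugating enzyme of mitosis, had 22.8, 42.0 and 7.64 CPM in Ighd+ cells, against 70.1, 123 and 609 CPM in Ighd-negative cells. Stmn1 and Hmgb2 were lower in Ighd+ cells of 2 of 3 mice, with mouse 2 the exception. Cenpe, a mitotic motor, had 2 UMIs in Ighd+ cells and 83 in Ighd-negative cells, 101-fold lower per UMI (95% counting interval 27.0 to 845), and 34 of its UMIs came from 1 cell of mouse 3. Cks2, Dut, Atad2, Dstn and Smagp fell by 2.23 to 2.40.

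Basp1, a membrane protein on the germinal-centre list, fell by 4.59 (SE 0.53), with 0, 7.00 and 42.0 CPM in Ighd+ cells against 269, 92.0 and 835 CPM in Ighd-negative cells. Of 7 glycolysis genes, Gapdh and Tpi1 fell, Tpi1 being lower in Ighd+ cells of 2 of 3 mice. In mouse 1, the Ighd-negative cell with 49496 UMIs held 33 of 39 Tpi1 UMIs and 188 of 354 Gapdh UMIs. Apoe fell by 1.73 (SE 0.42, edgeR adjusted p = 0.0064), lower in Ighd+ cells of 2 of 3 mice. The Ighd-negative cell of mouse 1 that led Igkc held 69 of its 249 UMIs. The fit could not be repeated without the 19 germinal-centre-gene cells, since only mouse 3 then had 5 or more cells in both states. Their part in these differences was not tested.

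**Figure D5:**
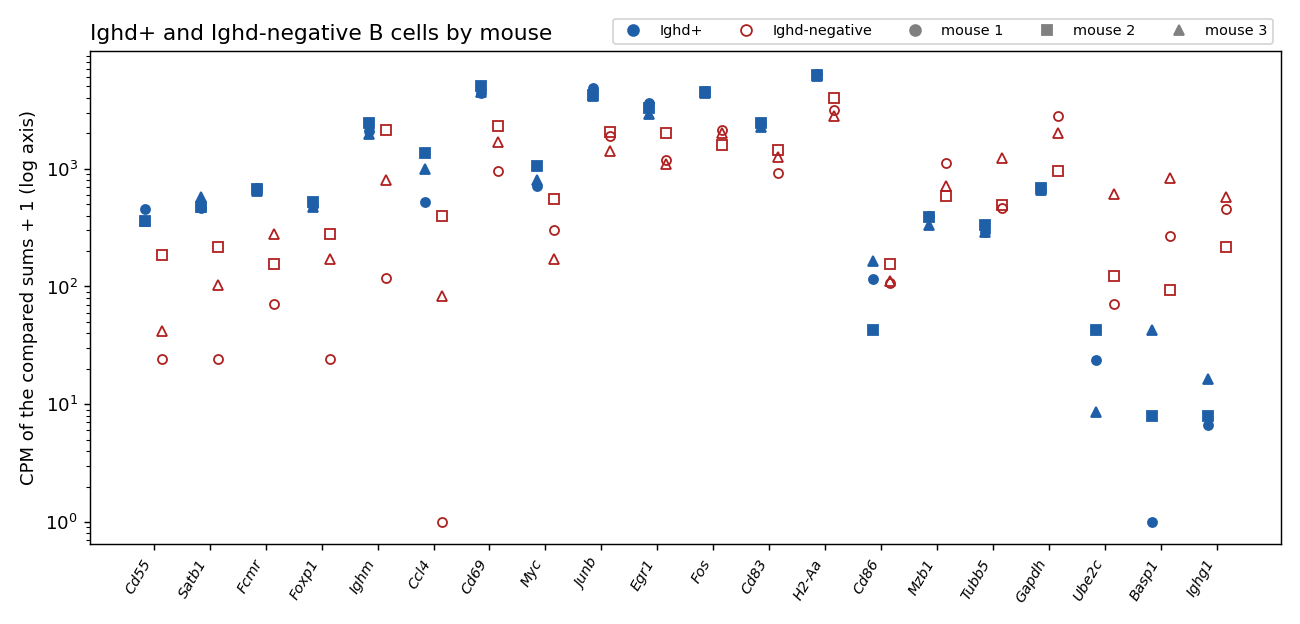
Levels in the compared sums as CPM plus 1 on a log axis, 1 point per mouse, filled for Ighd+ and open for Ighd-negative B cells. Egr1 and Cd69 were higher in Ighd+ cells of all 3 mice, Ighg1 and Basp1 were lower, and Cd86 overlapped.

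The mice differed most in a few genes, and single cells set some of these. Ighg2b had 2299.6, 0 and 2.13 CPM in mice 1, 2 and 3, and 705 of its 711 UMIs came from 1 cell of mouse 1, the one that led Igkc. A cell of mouse 1 with 49496 UMIs held 30% or more of the UMIs of 21 genes (of those with 30 UMIs or more in B cells), with 91 of 162 UMIs of the histone gene Hist1h1b. In Ccl22, a chemokine that draws CCR4+ T cells, 75 of 105 UMIs were in 1 cell of mouse 3, which also held 18 of 30 Fscn1 UMIs. Mki67, Stmn1 and Basp1 were highest in mouse 3, with 245, 241 and 284 CPM, and lowest in mouse 2, with 14.1, 32.9 and 18.8 CPM.

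Xist, the X-inactivation RNA, had 1039.7, 1020.1 and 4.27 CPM in B cells and 1132, 1096 and 13.3 CPM in Cd3-marked cells. The Y-linked gene Ddx3y had 0, 0 and 119.5 CPM in B cells and 1.65, 1.92 and 108 CPM in Cd3-marked cells. B cells and Cd3-marked cells carried the same pattern under each hashtag. Mouse 3 thus stood apart from mice 1 and 2 in sex-linked genes, and a difference of mouse 3 from the others cannot be told apart from one of sex.

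B cells by the same rule in the Tfh sort differed in several levels, given side by side because strain, chemistry, lane and sequencer differ together with the sort and cannot be told apart. Cd74 had 37569, 37582 and 39368 CPM in B cells of the Tfh sort, above every reporter-sort mouse. Cd79b, at 1273, 1222 and 1097 CPM in the reporter sort, had 699, 519 and 477 CPM in the Tfh sort, while Cd79a had 2325, 2356 and 2305 CPM there, within the range of the reporter sort. Ccl4 was 295, 973 and 583 CPM in the reporter sort and 3716, 4069 and 4070.1 CPM in the Tfh sort. Myc was 489, 789.8 and 504 CPM in the reporter sort and 2122, 2273 and 2138 CPM in the Tfh sort, with no overlap. Mki67 overlapped, at 81.0, 14.1 and 245 CPM in the reporter sort and 27.3, 14.8 and 18.2 CPM in the Tfh sort.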

How the data were processed

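Transcripts and hashtag antibodies were counted by droplet 3′ sequencing in 2 sorts of mouse lymph-node cells, and only the B cells of the IL-4 reporter sort are described. Gene matrices were deposited as raw UMI counts of 28692 features per barcode, and hashtag tables as raw counts that may be of molecules or of reads. Per the submitters' processing notes, Cell Ranger 2.2.0, bcl2fastq 2.18.0.12 and 2.20.0.422 and builds mm10 and GRCm38 were used, while the reporter matrix header names Cell Ranger version 3.0.2. The aligner's annotation is not given in the sources used here. Counts of features with 1 symbol were summed (67 duplicates).

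UMIs were summed per mouse and group, with cells never used as replicates. Levels of the germinal-centre-gene cells, and of barcodes around the limits of the rule, were instead pooled over mice. Levels (CPM) are UMIs scaled to a total of 1000000. Nothing in the labels speaks of separate experiments, so p-values measure the spread between these 3 mice of 1 lane. B cells against Cd3-marked cells is the contrast that chose the members and has no test. The states within B cells were tested with edgeR 4.0.16 (quasi-likelihood, TMM, filterByExpr with a minimum count of 10, Benjamini-Hochberg at 0.05 over all genes) in R 4.3.3, with the mouse as a block because every mouse gave both states. Sums needed 10 cells for T-cell transcripts and 5 for Ighd. DESeq2 1.42.0 was an alternative. On simulated counts of 2036 genes, the Ighd comparison recovered 90% of 4-fold and 18% of 2-fold changes with 1 false call. On 2244 genes, the T-cell transcript comparison recovered 85% and 48% with 5. These counts were drawn from pooled gene means with a common dispersion, and held no mouse effect and no dominant cell. Their false calls therefore do not measure those of the real sums. Python 3.11.15, numpy 2.4.6, pandas 2.3.3 and scipy 1.17.1 did the rest. Confidence level was 95%, and intervals and floors (3 counts) cover counting error only.

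The members and lists were chosen with earlier results of these data known. Named genes are the 10 largest rises and falls among genes passing, moving the same way in every mouse and at 20 CPM or more in the higher state, up to 4 passing members of each list, a few set members, and for B against Cd3-marked cells the 20 largest ratios of genes with 100 CPM or more in B cells of every mouse, rule genes not counted. Genes named beyond these were chosen after their values were seen. Promoters and coordinates are RefSeq's, GRCm38.p6. Some genes picked by the naming rule are not reported here.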

Additional observations from a re-analysis of the deposited data

Results flagged for a closer look

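Egr1 was higher in B cells than in Cd3-marked cells in every mouse of the reporter sort and lower in every mouse of the Tfh sort. The log2 ratio was 0.66 ± 0.19 (SD, n = 3) in the reporter sort and −0.07 ± 0.04 in the Tfh sort. In the Tfh sort Egr1 had 912, 904 and 832 CPM in B cells, against 935, 949.8 and 901 CPM in Cd3-marked cells. The difference between the sorts was not tested. Strain, chemistry, lane and sequencer differ together with the sort and cannot be told apart.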

How the results depend on the processing

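For Ighd+ against Ighd-negative cells, the 129 calls became 41 with DESeq2 (29 higher, 12 lower), 33 of 877 genes at matched depth, 360 without any Cd3 UMI (mouse 2 then dropped out), and 65 without cells over 20000 UMIs, a limit chosen after seeing the data. Leaving out each mouse gave 6 to 423. Library totals without size factors, also chosen after seeing the data, gave 153 (64 higher, 89 lower) and moved the median of all genes to −0.20. RLE factors gave 108, a limit of 2 UMIs 87, a B sum of 8 or more 110 and no low-count filter 193. Of 556 values over 47 named genes, 451 kept direction and side of the threshold, 95 kept direction and no longer passed, Cr2 newly passed in 2, and 8 changed sign, all of Cd86, which never passed. Its log2 change was −0.20 with library totals, −0.011 without the replicate block, −0.21 with DESeq2, −0.0026 with a limit of 2 UMIs, −0.054 with a B sum of 8 or more, −0.33 without cells over 20000 UMIs, and −0.60 to 0.50 when a mouse was left out.

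Every mouse gave both states, so the mouse pairs them. Without the replicate block there were 152 calls for Ighd, 121 of them among the 129, and 0 for T-cell transcripts.

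For T-cell transcripts, the 0 calls became 6 with no low-count filter, 2 with a B sum of 8 or more, 3 without cells over 20000 UMIs, 1 with library totals and 1 to 3 when a mouse was left out. Apoe was among them in all but the fits without mouse 1 and without mouse 2. DESeq2, RLE factors, a limit of 2 UMIs and matched depth gave 0. Of 133 values of named genes, 17 changed sign and did not pass. At matched depth these were Cd69 (log2 0.0033), Egr1 (0.15), Fcer2a (0.019), Fos (0.16) and Ighd (0.032). Egr1 was also at 0.0018 with library totals, 0.062 with no low-count filter and 0.077 without cells over 20000 UMIs. Il4ra was at −0.0040 without the replicate block and −0.063 with a B sum of 8 or more, where Mki67 was at 0.30, after 0.0040 with DESeq2. Leaving out each mouse gave Cd69 −0.48 to 0.23, Egr1 −0.14 to 0.12, Fcer2a −0.34 to 0.23, Myc −0.49 to 0.037 and Ighm −0.10 to 0.57, which passed without mouse 1 (edgeR adjusted p = 0.0498). The cause of these changes was not tested.

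A mitochondrial limit of 5% took the share of B cells to 0.978% and the hashtag log2 difference to −0.93, and no Cd3 UMI took the share to 2.83%. Of 192 values of B-cell levels under alternatives, 170 moved by less than 1 SD between mice and 22 by more. Both state comparisons at the 5% limit, and T-cell transcripts with no Cd3 UMI, could not be fitted.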

Other observations

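Other gene groups were also read in the B cells. Of 10 follicular helper T genes, 8 were lower in B cells than in Cd3-marked cells, 1 overlapped, and Cxcr5, which B cells share, was higher. Of all 5739 genes, 42.7% were lower and 18.3% higher. Il21, the helper cytokine, had 0, 14.1 and 4.27 CPM in B cells, against 239, 213 and 197 CPM in Cd3-marked cells. Ccl1, a chemokine of type 2 helper cells, had 22.7, 37.6 and 36.3 CPM in B cells, against 824, 815 and 555 CPM in Cd3-marked cells.

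Among 7 plasma-cell genes with 20 CPM or more, 3 were higher in B cells, 1 lower and 3 overlapping. Beside them, 18.3% of all 5739 genes were higher and 42.7% lower, and nothing is read from this list. Mzb1 had 531, 353 and 406 CPM in B cells, against 2.08, 1.57 and 1.76 CPM in Cd3-marked cells. Xbp1, a secretory-pathway regulator, overlapped, with 117, 61.1 and 79.0 CPM in B cells and 81.6, 81.5 and 81.2 CPM in Cd3-marked cells. Without the cell that held 13 of its 36 UMIs in mouse 1, the same cell that led Igkc, that mouse had 77.1 CPM.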
